A study of Homo sapiens with 9 samples.

Results

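The miR-17-92 cluster is a group of 6 miRNA hairpins cut from 1 long RNA, the transcript of MIR17HG. The 6 were taken by name from a table of 1485 hairpins: hsa-mir-17, hsa-mir-18a, hsa-mir-19a, hsa-mir-20a, hsa-mir-19b-1 and hsa-mir-92a-1. All 6 passed the minimum, an average of 10 counts per library, in both cell lines. Small RNAs were sequenced from HEK293E, a derivative of a human embryonic kidney line, and from K562, a human leukaemia line with erythroid features. HEK293E received siGFP or siControl (2 libraries each, 4 control libraries in all), siERH-3 (2 libraries) or siERH-5 (1 library), with transfections on days 0 and 3 and harvest on day 5. K562 received siGFP or siERH-5 (1 library each) and was harvested 4 days after a single transfection. siERH-3 and siERH-5 are siRNAs against ERH, and every group received an siRNA, so no untransfected cells stand beside them. Replicate numbers 1 and 2 of HEK293E match experimental groups 1 and 2 of the labels, and replicate 1 has no siERH-5 library. Both K562 libraries are in experimental group 3, which holds no HEK293E library. The labels do not say whether replicates were separate cultures, so p-values measure the spread between these libraries, which may be technical.

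MIR17HG is a polycistronic miRNA gene that MYC and E2F factors activate, and its amplification in lymphoma gave the cluster the name oncomiR-1. The nuclear Microprocessor, made of DROSHA and DGCR8, cuts each hairpin out of the primary transcript, and DICER then releases the mature miRNA. ERH is a small nuclear protein that binds DGCR8 and is known to aid the cutting of some hairpins that sit beside a better substrate in a cluster. Within miR-17-92, miR-17 and miR-20a repress cell cycle and apoptosis genes such as CDKN1A and BCL2L11. The miR-19 members are known as the main oncogenic part of the cluster in B-cell lymphoma, and miR-18a represses genes of TGF-beta signalling.

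The mature sequences show which members share a seed, bases 2 to 8 from the 5′ end, which pairs with target mRNAs. They are from RefSeq (GRCh38.p14), 5′ to 3′, for the arm that usually becomes the guide, with the seed in capitals.

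miR-17-5p: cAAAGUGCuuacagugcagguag
miR-20a-5p: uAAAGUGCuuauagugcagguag
miR-18a-5p: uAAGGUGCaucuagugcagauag
miR-19a-3p: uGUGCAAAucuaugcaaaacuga
miR-19b-3p: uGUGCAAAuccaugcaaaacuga
miR-92a-3p: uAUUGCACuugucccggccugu

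The 6 members thus carry 4 seeds. miR-17-5p and miR-20a-5p share AAAGUGC, and miR-19a-3p and miR-19b-3p share GUGCAAA. Counted from the 5′ end, miR-19a-3p and miR-19b-3p differ at 1 of 23 bases (U11C), and miR-17-5p and miR-20a-5p at 2 (C1U and C12U). How reads that fit several hairpins were counted is not stated. miR-19b-3p and miR-92a-3p also arise, with the same sequence, from hsa-mir-19b-2 and hsa-mir-92a-2 in a second cluster on chromosome X. The counts of hsa-mir-19b-2 were 0.926 to 0.961 times those of hsa-mir-19b-1 across the 9 libraries, and those of hsa-mir-92a-2 were 0.971 to 0.983 times those of hsa-mir-92a-1. Values of these members therefore cannot be assigned to the MIR17HG locus alone. The usual guides of hsa-mir-17, hsa-mir-18a, hsa-mir-19a and hsa-mir-20a have no second locus of the same sequence, but near copies exist. miR-106a-5p differs from miR-17-5p at 1 base (C1A) and miR-18b-5p from miR-18a-5p at 1 base (A20U), so some of their reads may be shared. Their counts were far lower than those of the members. hsa-mir-106a had 8795 to 23890 against 75410 to 173354 for hsa-mir-17. hsa-mir-18b had 831 to 1424 against 56546 to 80762 for hsa-mir-18a. Rows of the table are hairpins, so the 5p and 3p arms were not separated.

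The cluster spans 787 bases of the plus strand of chromosome 13 (chr13:91350605-91351391, GRCh38), inside MIR17HG (91347820 to 91354579). In GENCODE release 29 each of the 6 hairpins lies within an exon of 2 of the 3 annotated MIR17HG transcripts and within an intron of the other. From 5′ to 3′ the gaps between neighbouring hairpins are 62, 69, 92, 56 and 35 bases. hsa-mir-19a is number 3 in line (91350891 to 91350972), with hsa-mir-18a (91350751 to 91350821) before it and hsa-mir-20a (91351065 to 91351135) after it. The hairpins of hsa-mir-19a and of hsa-mir-19b-1, its closest relative by mature sequence (91351192 to 91351278), are shown because their levels came apart in the siERH libraries. Capitals mark the 3p mature miRNA.

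hsa-mir-19a: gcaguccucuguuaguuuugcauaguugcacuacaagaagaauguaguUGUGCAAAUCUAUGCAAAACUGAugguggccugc
hsa-mir-19b-1: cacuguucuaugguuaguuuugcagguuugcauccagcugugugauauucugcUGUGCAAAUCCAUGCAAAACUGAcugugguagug

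Libraries held 2609929 to 3320017 hairpin counts. The 6 members made up 14.0% to 17.7% of all hairpin counts in the HEK293E control libraries, 15.0% to 15.9% in the siERH libraries, and 24.2% (siGFP) and 21.4% (siERH-5) in K562. Each member had at least 41816 counts in every library, so counting error was small beside the differences between libraries. Erythroid and blood-lineage hairpins (hsa-mir-144, hsa-mir-451a, hsa-mir-486-1, hsa-mir-486-2, hsa-mir-142, hsa-mir-223 and hsa-mir-155) summed to 391804 and 478966 counts in K562 and to 5372 to 9501 in HEK293E. Of these 7, hsa-mir-155 was the exception, with 0 and 2 counts in K562. ERH mRNA is not measured by small RNA sequencing, so the knockdown could not be checked in these libraries. Levels are set against the rest of the hairpins in a library, so whether the summed miRNA content of the cells differed was not measured.

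The first comparison asked how the cluster is divided among its members and whether that division differs when ERH is targeted. The share of a member is its percent of the summed counts of the 6 in the same library, a value that does not depend on how libraries are scaled. Shares within a library are tied to each other: when 1 falls, the rest of the sum rises. Adapter ligation can favour some miRNAs over others, so shares are compared between libraries, and the order of members is a description of reads. hsa-mir-19a, 1 of the 2 miR-19 hairpins of the cluster, held a smaller share in all 3 siERH libraries than in any of the 4 controls. Its share was 15.0% (siGFP) and 13.8% (siControl) in replicate 1, and 12.7% and 12.9% in replicate 2. With siERH-3 it was 9.04% in replicate 1 and 9.02% in replicate 2, and with siERH-5 it was 8.65%. The 3 siERH values lay close together, and the gap to the lowest control was wider than the spread among them. The mean fell from 13.6% ± 1.04 (SD, n = 4) to 8.90% ± 0.219 (SD, n = 3), a difference of -4.68 percentage points (two-sided exact permutation test over 35 splits, p = 0.0286, the smallest p this design allows). The difference was -5.34 points within replicate 1 and -3.96 within replicate 2. With the replicate number as a block it was -4.51 points (exact permutation p = 0.0556, the smallest that 18 splits within replicates allow), so the blocked design cannot pass 0.05.

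**Figure D1:**
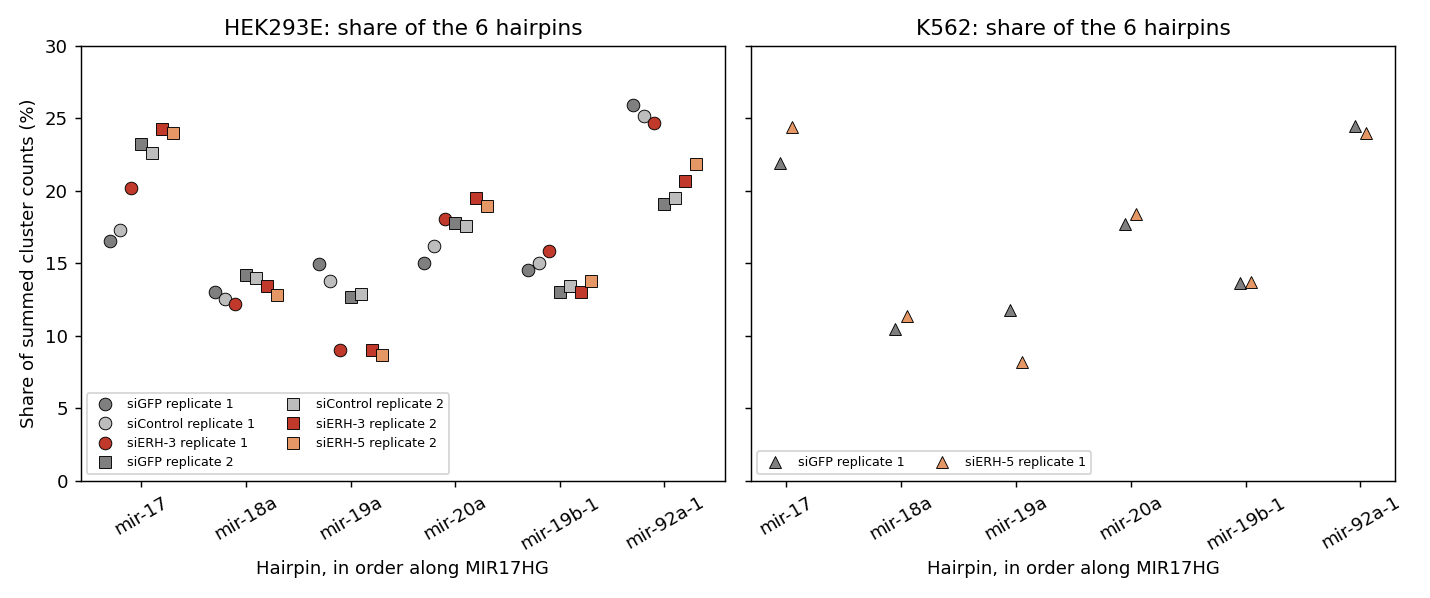
Share of each hairpin in the summed counts of the 6 members (vertical axis, percent), in order along MIR17HG, with 1 point per library (circles and squares for HEK293E replicates 1 and 2, triangles for K562, red and orange for siERH-3 and siERH-5, grey for control siRNAs). hsa-mir-19a is the member whose siERH points lie below all control points in both cell lines, at 8.65% to 9.04% in HEK293E and 8.19% in K562.

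In a second version hsa-mir-19b-1 and hsa-mir-92a-1, whose reads fit a second locus, were left out of the sum. Among the 4 remaining members the share of hsa-mir-19a differed by -7.45 points, that of hsa-mir-20a by 3.59 and that of hsa-mir-18a by -0.90 (exact permutation p = 0.0286 for each). These tests are not independent, since a smaller share of hsa-mir-19a by itself makes the other shares larger.

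Among all 6 members, the other 5 shares did not pass 0.05 among the 6 tests, which were not adjusted for number. hsa-mir-20a had 15.0% and 16.2% in the replicate 1 controls, 17.8% and 17.6% in the replicate 2 controls, 18.0% and 19.5% with siERH-3, and 18.96% with siERH-5. Its siERH and control values did not overlap, with a difference of 2.21 points (exact permutation p = 0.0571). hsa-mir-17 shares its seed with hsa-mir-20a and had 16.6% and 17.3% in the replicate 1 controls against 23.2% and 22.6% in the replicate 2 controls. With siERH-3 it had 20.2% and 24.3%, and with siERH-5 24.0%. Each siERH library was above both controls of its own replicate, but the groups overlapped once replicates were pooled (difference 2.89 points, exact permutation p = 0.286).

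hsa-mir-18a had 13.004% and 12.6% in the replicate 1 controls and 14.2% and 14.0% in the replicate 2 controls. In the siERH libraries it had 12.2%, 13.5% and 12.8%, and each was below both controls of its replicate. The pooled difference was -0.603 points (exact permutation p = 0.314). hsa-mir-19b-1, which shares the seed of hsa-mir-19a, had a mean of 14.0% ± 0.924 (SD, n = 4) with control siRNAs and of 14.2% ± 1.45 (SD, n = 3) with siERH (exact permutation p = 0.886). hsa-mir-92a-1, the last hairpin and the only member with the AUUGCAC seed, had 22.4% ± 3.61 (SD, n = 4) and 22.4% ± 2.07 (SD, n = 3; exact permutation p = 1). Its control share was 25.5% in replicate 1 and 19.3% in replicate 2, a gap of -6.23 points. That gap between replicates was wider than the siERH difference of hsa-mir-19a. For hsa-mir-17 the replicate gap was 5.97 points the other way.

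Summed by seed, the 2 miR-19 members took 27.6% ± 1.84 (SD, n = 4) of the cluster with control siRNAs and 23.1% ± 1.53 (SD, n = 3) with siERH, and the groups did not overlap. That difference came from hsa-mir-19a (-4.68 points), as hsa-mir-19b-1 differed by 0.18 points, so it is not a separate result. hsa-mir-17 and hsa-mir-20a together took 36.6% ± 4.72 and 41.7% ± 3.01, with overlap between the groups.

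The order of the members by reads also depended on the replicate. hsa-mir-92a-1 came first in the 3 libraries of replicate 1, ahead of hsa-mir-17, and hsa-mir-17 came first in the 4 libraries of replicate 2. hsa-mir-20a ranked 3 in all 9 libraries. hsa-mir-19a was last in all 3 siERH libraries of HEK293E and in the siERH-5 library of K562, and it was also last in both replicate 2 controls, where it lay just under hsa-mir-19b-1 (12.7% against 13.05% and 12.9% against 13.5%).

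Ratios of hsa-mir-19a to each other member, taken within a library, show the same separation without a shared denominator. The log2 ratio of hsa-mir-19a to hsa-mir-19b-1 was 0.04 and -0.13 in the replicate 1 controls and -0.04 and -0.06 in the replicate 2 controls. It was -0.81 and -0.53 with siERH-3 and -0.67 with siERH-5. The pair was thus read about equally in control libraries and 1.54-fold apart from that balance in the siERH libraries. Against hsa-mir-18a, the neighbour before it, the mean log2 ratio went from 0.01 ± 0.18 (SD, n = 4) to -0.53 ± 0.08 (SD, n = 3). Against hsa-mir-20a, the neighbour after it, it went from -0.29 ± 0.22 to -1.08 ± 0.07. The differences against hsa-mir-17 and hsa-mir-92a-1 were -0.81 and -0.62. In all 5 ratios that include hsa-mir-19a, which are not independent of each other, the siERH and control libraries did not overlap. Of the 10 ratios without it, 2 did not overlap: hsa-mir-17 over hsa-mir-18a, with a difference of 0.27, and hsa-mir-18a over hsa-mir-20a, with a difference of -0.25. Held to the controls of its own replicate, each siERH library was outside them on the same side in 5 of these 10 ratios. Those were the 4 ratios of hsa-mir-18a to the members other than hsa-mir-19a, all with hsa-mir-18a lower, and hsa-mir-20a over hsa-mir-19b-1. Their differences with the replicate block were 0.11 to 0.25 in size (exact permutation p = 0.0556 for each, the smallest that 18 splits allow).

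**Figure D2:**
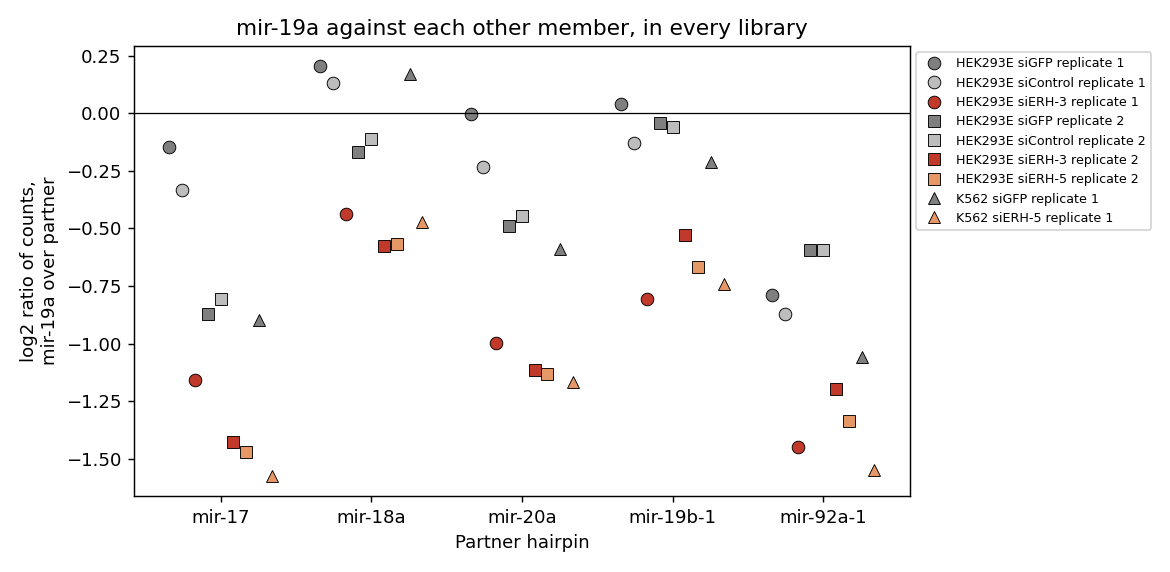
log2 ratio of the counts of hsa-mir-19a to each other member (vertical axis), with 1 point per library, in the colours and symbols of its legend. For all 5 partners the 3 HEK293E siERH libraries lie below the 4 control libraries, and the K562 siERH-5 library lies below K562 siGFP by 0.49 to 0.68.

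The next comparison asked which members changed in abundance, by edgeR's quasi-likelihood test on the 773 hairpins that passed the count minimum in HEK293E. Levels are CPM, counts per 1000000 after TMM scaling, which lines up libraries on the bulk of their hairpins. hsa-mir-19a fell, and the other 5 did not pass the threshold of an adjusted p under 0.05. Lower calls took 16.2% of all hairpins tested, calls in either direction 40.0%, and 1 of the 6 members was among the lower ones. hsa-mir-19a had 19476 and 22033 CPM in the replicate 1 controls and 24741 and 25471 CPM in the replicate 2 controls. With siERH-3 it had 12397 and 13614 CPM, and with siERH-5 12157 CPM. All siERH values lay well below the lowest control. Its fitted log2 difference was -0.85 ± 0.15 (SE), with an edgeR adjusted p of 0.00162, and it was -0.87 with the replicate number as a block. The log2 ratio of means was -0.74 within replicate 1 and -0.96 within replicate 2. Of the 773 hairpins, 10.2% had a log2 fold change as low or lower. CPM groups did not overlap for hsa-mir-19a, and for none of the other 5 members, while 19.1% of all hairpins had siERH values entirely below control and 44.6% entirely below or above it.

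hsa-mir-18a was at -0.33 ± 0.19 (SE) on the same log2 scale, with an edgeR adjusted p of 0.206. With the replicate number as a block it was called, at -0.37 ± 0.12 (SE; edgeR adjusted p = 0.0229), where 20.6% of all hairpins were called lower and 48.6% in either direction. Its CPM was 16906 and 20127 in the replicate 1 controls, 27765 and 27525 in the replicate 2 controls, 16764 and 20325 with siERH-3, and 18012 with siERH-5. Without siGFP replicate 1, hsa-mir-18a (-0.46, edgeR adjusted p = 0.0356) and hsa-mir-19b-1 (-0.33, edgeR adjusted p = 0.0406) were called as well, among 16.9% of hairpins called lower. The copy hsa-mir-19b-2 (-0.33, edgeR adjusted p = 0.0424) was called with them. In replicate 1 the siERH-3 value of hsa-mir-18a was just below both controls, and in replicate 2 both siERH values were well below both controls. hsa-mir-19b-1 and hsa-mir-92a-1 were each at -0.23 on that scale (SE 0.16 and 0.13; edgeR adjusted p = 0.264 and 0.205). hsa-mir-17 and hsa-mir-20a each had -0.09 (SE 0.25 and 0.20; edgeR adjusted p = 0.795 and 0.746).

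The replicates differed in how much of the cluster was lower. Replicate 2 alone has 2 libraries in each arm, 1 per siRNA. The p-values of that fit therefore rest on the spread between siRNAs within 1 experimental group. All 6 members were lower there at an edgeR adjusted p between 3.04e-06 and 0.0203, with 12.9% of 770 hairpins called lower. Their log2 fold changes there ran from -0.24 (hsa-mir-92a-1) to -0.92 (hsa-mir-19a). With library totals in place of TMM in the same 4 libraries, hsa-mir-19a (-0.69) and hsa-mir-18a (-0.25) were called lower. In that fit 6.88% of hairpins were called lower and 38.6% in either direction. In replicate 1, with 1 siERH library and no test, the log2 ratios were 0.17 for hsa-mir-17, 0.13 for hsa-mir-20a, 0.01 for hsa-mir-19b-1, -0.13 for hsa-mir-92a-1, -0.14 for hsa-mir-18a and -0.74 for hsa-mir-19a. hsa-mir-19a was the lowest of the 6 in both replicates.

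The scaling of libraries set the sign of the smallest changes. Library totals in place of TMM moved the median over all hairpins by 0.20 (log2) and gave 67 lower and 212 higher calls in place of 125 and 184, a lower share of 24.0% in place of 40.5%. On library totals hsa-mir-17 and hsa-mir-20a were at 0.13 and 0.12, while relative to the median of all hairpins both were at -0.07. hsa-mir-19a was at -0.65 on library totals (edgeR adjusted p = 0.00131) and at -0.85 relative to the median. Its adjusted p over all 16 alternatives ran from 1.86e-07 to 0.0148.

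siERH-3 alone against control gave a fall of hsa-mir-19a of -0.81 ± 0.19 (SE; edgeR adjusted p = 0.0148), the 1 member called, where 11.5% of 759 hairpins were called lower and 30.6% in either direction. With the replicate block it was called too (edgeR adjusted p = 0.000808), among 18.7% called lower and 45.1% in either direction. The call without the block needed both siERH-3 libraries. With replicate 1 or replicate 2 of siERH-3 left out, 1 siERH-3 library remained, and the difference was -0.72 and -0.86. Calls over all hairpins also became fewer in those fits. siERH-5, with 1 library and no test, was at -1.05 against the replicate 2 controls, and siERH-3 replicate 2 was at -0.88 against the same controls. For the other 5 members the siERH-5 values against those controls lay between -0.62 (hsa-mir-18a) and -0.30 (hsa-mir-92a-1), and the siERH-3 values between -0.44 and -0.24. These comparisons share their controls.

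The control siRNAs were compared with each other as background. In siControl against siGFP none of the 6 members was called (log2 fold changes 0.10 to 0.19, edgeR adjusted p = 0.959 for each). Among all 730 hairpins 0.0% were called, with 24 at an unadjusted p under 0.05, and DESeq2 called 2 lower and 2 higher. With the replicate number as a block 18.2% of all hairpins were called in either direction and 8.36% lower, and none of the 6 members was among them. For hsa-mir-19a the share differed between the control siRNAs by -1.22 points in replicate 1 and by 0.25 points in replicate 2.

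Hairpins related to the cluster were read beside it, from a list of 11 that holds the 2 paralogue clusters, which start with hsa-mir-106a and hsa-mir-106b, and the seed relatives hsa-mir-92b and hsa-mir-32. hsa-mir-20b and hsa-mir-363 were under the count minimum in HEK293E. Of the 9 tested, edgeR called 0 in siERH against control, with 0 at an unadjusted p under 0.05, and the log2 fold changes ran from -0.23 to 0.23, with a median of -0.14 against -0.23 for the 6 members and -0.01 for all hairpins. DESeq2 and the fit with the replicate block also called 0 of 9. Calls in either direction took 40.0% of all hairpins by edgeR without the block, 42.3% by DESeq2 and 48.6% with the block. The 9 include hsa-mir-19b-2 and hsa-mir-92a-2, whose mature sequences are also those of members, so they are not separate from the cluster. Within replicate 2 alone, where 12.9% of hairpins were called lower and 36.5% in either direction, 3 of the 9 were called, all lower: the copies hsa-mir-19b-2 (-0.37) and hsa-mir-92a-2 (-0.24), and hsa-mir-106b (-0.27). On library totals the call in replicate 2 was hsa-mir-92b (0.41). hsa-mir-92b was also called in siControl against siGFP with the replicate block (0.39, edgeR adjusted p = 0.00569).

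**Figure D3:**
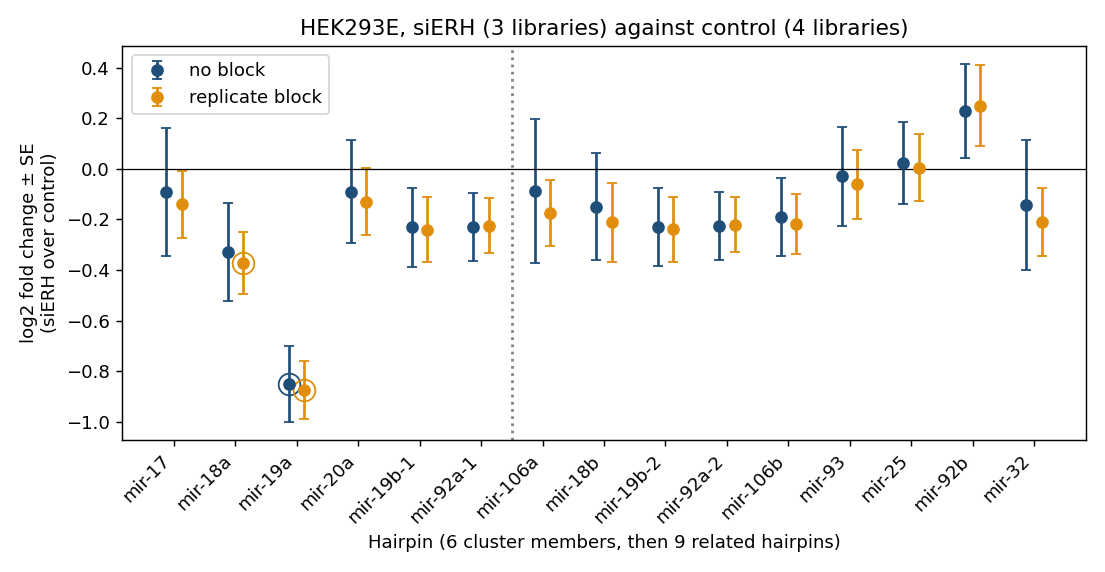
log2 fold change of siERH (3 libraries) over control (4 libraries) in HEK293E with its standard error (bars), for the 6 members and, right of the dotted line, 9 related hairpins. Blue points are without and orange points with the replicate block, and a ring marks an adjusted p under 0.05: hsa-mir-19a at -0.85 and -0.87, and hsa-mir-18a at -0.37 with the block.

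In K562, siERH-5 was compared with siGFP in 1 library each, so there is no replicate check and no test. The share of hsa-mir-19a with siGFP was 11.8% (95% exact Clopper-Pearson interval 11.7% to 11.8%). After siERH-5 it was 8.19% (8.12% to 8.25%). These intervals cover counting error only. The difference was -3.58 points, beside -4.14 points for siERH-5 against the replicate 2 controls in HEK293E. hsa-mir-17 went from 21.9% to 24.4%, hsa-mir-18a from 10.5% to 11.4%, hsa-mir-20a from 17.7% to 18.4%, and hsa-mir-92a-1 from 24.5% to 23.99%. hsa-mir-19b-1 had 13.6% and 13.7%. The log2 ratio of hsa-mir-19a to its neighbours changed by -0.64 against hsa-mir-18a and by -0.58 against hsa-mir-20a.

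On TMM-scaled levels, all 6 members were lower in the K562 siERH-5 library, where 44.0% of 646 hairpins had a log2 ratio below 0 and the median of all was 0.11. hsa-mir-19a went from 31374 to 15901 CPM, a log2 ratio of -0.98, and 6.97% of hairpins had a ratio as low or lower. No member differed by 2-fold or more, as 16.9% of hairpins did. The other 5 members lay between -0.49 (hsa-mir-92a-1) and -0.30 (hsa-mir-17), with hsa-mir-18a at -0.34. As percent of all hairpin counts, hsa-mir-19a went from 2.84% to 1.75%, and hsa-mir-17 from 5.30% to 5.22%. hsa-mir-19a was thus the lowest member in this pair of libraries too.

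**Figure D4:**
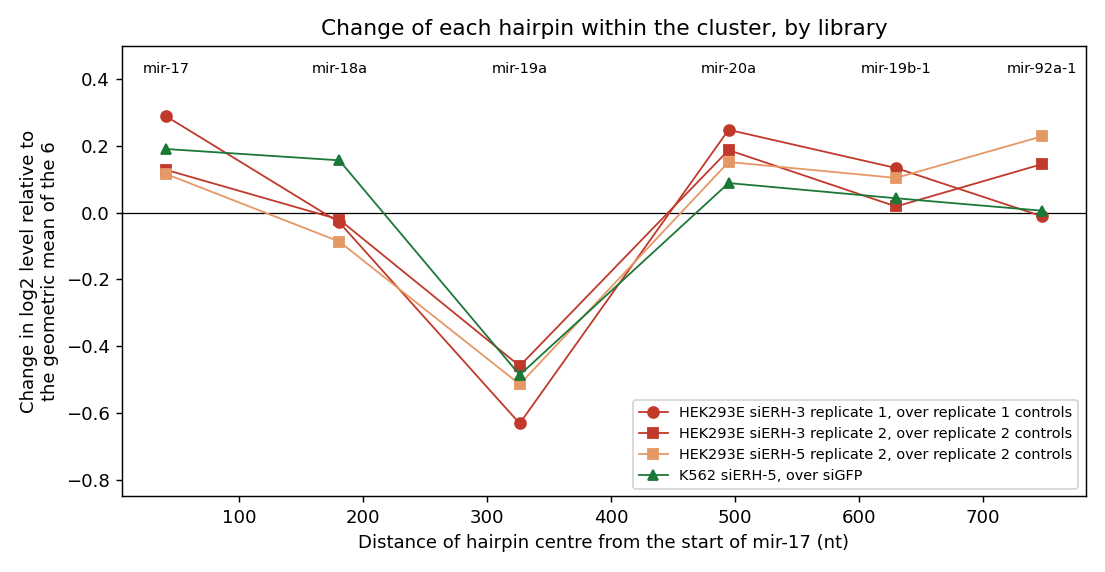
Change in the log2 level of each hairpin relative to the geometric mean of the 6 (vertical axis), plotted by the distance of its centre from the start of hsa-mir-17 in bases, for 3 HEK293E siERH libraries against the controls of their replicate and for K562 siERH-5 against siGFP. The third hairpin, hsa-mir-19a, is at -0.63, -0.46, -0.51 and -0.49, and the other members lie between -0.09 and 0.29.

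Between the cell lines, control libraries were set side by side with no test, since K562 has 1 siGFP library. Cell line, experimental group, number of transfections and day of harvest differ together here, so they cannot be told apart. hsa-mir-18a held 10.5% of the cluster in K562, below all 4 HEK293E controls (12.6% to 14.2%). hsa-mir-19a held 11.8%, below 12.7% to 15.0%. The K562 shares of the other 4 members lay inside the range of the HEK293E controls. As a whole the cluster took a larger part of the library in K562, at 24.2% of hairpin counts against 16.0% ± 1.68 (SD, n = 4). The size of that difference depended on the scaling: the summed level was 1.51 times the HEK293E control mean on library totals and 3.14 times with TMM over the 9 libraries. The CPM of single members above were scaled within each cell line, so they do not add up to these summed levels. In HEK293E the summed level with TMM over the 9 libraries averaged 144673 ± 28342 CPM (SD, n = 4) over the control libraries. Over the siERH libraries it averaged 125865 ± 7981 CPM (SD, n = 3), and the groups overlapped.

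The hairpins whose levels followed the cluster most closely across the 7 HEK293E libraries were hsa-mir-342, hsa-mir-598 and hsa-mir-24-1. Their log2 CPM correlated with the log2 of the summed CPM of the 6 members at Pearson r = 0.983, 0.981 and 0.975, where the median of 404 candidates was 0.03. Those values are a description over 7 libraries that share 2 experimental groups. The cluster's own members, each a part of that sum, ranged from 0.656 (hsa-mir-92a-1) to 0.987 (hsa-mir-18a), with hsa-mir-19a at 0.741.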

How the data were processed

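Small RNAs of 18 to 30 nucleotides were sequenced in 9 libraries. Counts per hairpin are as the authors deposited them; cutadapt, Bowtie2, bedtools and hg38 are named per the submitters' processing notes, with versions and multi-mapping rules not given in the sources used here. Blank cells were read as 0, and the deposited RPM table was not used. edgeR 4.0.16 (R 4.3.3) fitted hairpins averaging 10 counts or more, with TMM and Benjamini-Hochberg adjustment over all hairpins tested; DESeq2 1.42.0, other scalings and filters, a replicate block and left-out libraries were alternatives. Scripts were tested on simulated data. Shares were tested by two-sided exact permutation over libraries. Same-numbered libraries deviated together (r = 0.692, 0.480 and 0.519 over 773 hairpins), and the numbers match the labelled experimental groups, so they pair. Every member is named, and with the copies, related hairpins past the threshold in siERH against control, and the 3 hairpins most correlated with the cluster; related hairpins called under an alternative were named after their values were seen. Members and lists were chosen with earlier results of these data known.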

Additional observations from a re-analysis of the deposited data

Results flagged for a closer look

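The share of hsa-mir-18a in the cluster moved in opposite directions in the 2 cell lines. It was 0.909 percentage points higher in K562 with siERH-5 than with siGFP, and in HEK293E it was below both same-replicate controls in 3 of 3 siERH libraries, with a pooled difference of -0.603 points (exact permutation p = 0.314). The level of hsa-mir-18a was lower in both lines, at a log2 value of -0.33 in HEK293E, which was not called without the replicate block, and -0.34 in K562. With the replicate block hsa-mir-18a was called lower in HEK293E, where 20.6% of all hairpins were called lower and 48.6% in either direction. The difference between the lines was not tested, since K562 has 1 library per siRNA.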

How the results depend on the processing

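The fall of hsa-mir-19a kept its direction and its call in all 16 alternatives of the edgeR test in HEK293E (log2 fold change -0.94 to -0.65), and its lower share kept its direction in all 12 alternatives. The share test, in which the members' shares are tied to each other, passed for 3 members when 4 were summed, in place of 1. It passed for 0 with the replicate block (18 splits), with siERH-3 only (15 splits) and with any library left out (0 in each, 15 to 20 splits), where the smallest p these splits allow is above 0.05. In K562, the number of members with a lower share was 1 in place of 2 among the 4 members, and 1 relative to the geometric mean, where hsa-mir-92a-1 turned to 0.0061. The siERH count of lower hairpins (125) was 67 on library totals, 63 with a mean of at least 100 counts, 53 in replicate 2 on library totals, and 76 to 130 with a library left out, lowest without siERH-3 replicate 2 (76) or replicate 1 (77). The higher count (184) was 82 with a mean of at least 100 counts, 244 in replicate 2 on library totals and 136 to 189 with a library left out. With the replicate block the siERH counts were 159 lower and 217 higher. For siERH-3 the lower count (87) was 48 on library totals, 46 with a mean of at least 100 counts, 142 with the replicate block and 19 to 102 with a library left out, with 51 without siControl replicate 1. Its higher count (145) was 69 with a mean of at least 100 counts and 42 to 152 with a library left out. With the replicate block the higher count of siERH-3 was 200. Where an arm kept 1 library, it was assumed to vary like the others. siControl against siGFP gave 0 lower and 0 higher calls, 2 and 2 with no filter, 2 and 2 by DESeq2, 61 and 72 with the replicate block, and 0 and 0 to 1 with a library left out. Beside the calls given above, the block changed no call of a member. Replicate 2 fits and left-out libraries for the summed level (ratio of siERH to control 0.808 to 0.921) were chosen after seeing the data. For these counts the cause was not tested, except that the stricter filter tests fewer hairpins and a left-out library leaves fewer samples.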
